A study of Mus musculus with 16 samples.

Results

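The genes here encode enzymes that add or remove acetyl groups or remove methyl groups, on histones and other proteins, and adaptors for transcription factors. They were taken by symbol from the platform's annotation: the histone deacetylases Hdac1 to Hdac11, the sirtuins Sirt1 to Sirt7, the Ncoa coregulators and Ncor1, the Kdm histone demethylases, and Ep300, Crebbp, Kat2a, Kat2b, Sin3a, Sin3b, Nrip1 and Runx1t1. Of 19640 genes with a probe that names a single gene, 50 belonged to this set, with 89 probes. Ncor1 and Ncoa4 had no such probe and are not among the 50.

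A ligand-bound nuclear receptor such as the glucocorticoid receptor recruits coactivators of the p160 family (Ncoa1, Ncoa2, Ncoa3), which bring in the acetyltransferases encoded by Ep300, Crebbp and Kat2b. Corepressors work the other way and bring in histone deacetylases, and demethylases change which methylated lysines are left for other proteins to read. Several of these proteins take part in adipocyte differentiation, in which the nuclear receptor PPARγ and the C/EBP factors use the same coregulators.

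RNA was measured in 3T3-L1 cells, an established mouse preadipocyte line that can be driven to become adipocytes. The 4 groups, all of this 1 line, were cells given dexamethasone (dex), a synthetic glucocorticoid, for 2 h, cells given the solvent DMSO for 2 h, cells given dex for 36 h and cells given DMSO for 36 h, and the sources used here give no dose and no other agent. Each group had 4 samples that the labels call biological replicates, 16 arrays in all, and each sample (Cy5) shared its array with a common pool (Cy3). A value is the deposited log ratio of sample over pool for 1 probe on 1 array, read here as log2, so it compares a gene between groups and gives no level.

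The arrays differed in noise. Residual SDs over all probes were 0.108 to 0.205 on the 36-hour arrays and 0.168 to 0.435 on the 2-hour arrays, and DMSO 2 h replicate 4 correlated with the rest of its group at a mean r of -0.104. Over the 89 member probes, the median SD between replicates was 0.118 in dex 2 h and 0.239 in DMSO 2 h, and 0.139 in dex 36 h and 0.0798 in DMSO 36 h. Since limma used 1 variance per probe for all 16 arrays, the standard errors (SE) average the noisier early arrays with the quieter late ones. Whether these ratios come from preadipocytes alone cannot be checked, because they hold no levels. In bulk RNA, fewer cells of a type and less RNA per cell cannot be told apart.

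With dex, Nrip1 was higher and Runx1t1 lower at both times. Ep300 was higher at 2 h, Ncoa3 and Kat2b were higher at 36 h, and Hdac2, Hdac4, Crebbp and Kdm2a were lower at 36 h. At 2 h, 3 of 50 members passed (6% against 3.18% of all genes), which means at least 1 probe with a Benjamini-Hochberg adjusted p under 0.05 in limma over all 38467 probes; 2 rose (1.97% of all genes did) and 1 fell (1.21%), and 3 of the 89 probes passed (2.22% of all probes). With quantile normalization the split was 2 up and 2 down, the added gene being Sin3a (3.38% of all genes passed there). At 36 h, 8 of 50 passed (16% against 11.7% of all genes), 3 upward (6.88% of all genes) and 5 downward (4.96%), and 10 of the 89 probes passed, against 8.83% of all probes. The median absolute log2 change of the member probes was 0.123 at 2 h and 0.125 at 36 h, beside 0.114 and 0.132 over all probes. These shares and medians lie near those of the whole array, so nothing is read from them about the set, and what follows concerns single members.

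**Figure D1:**
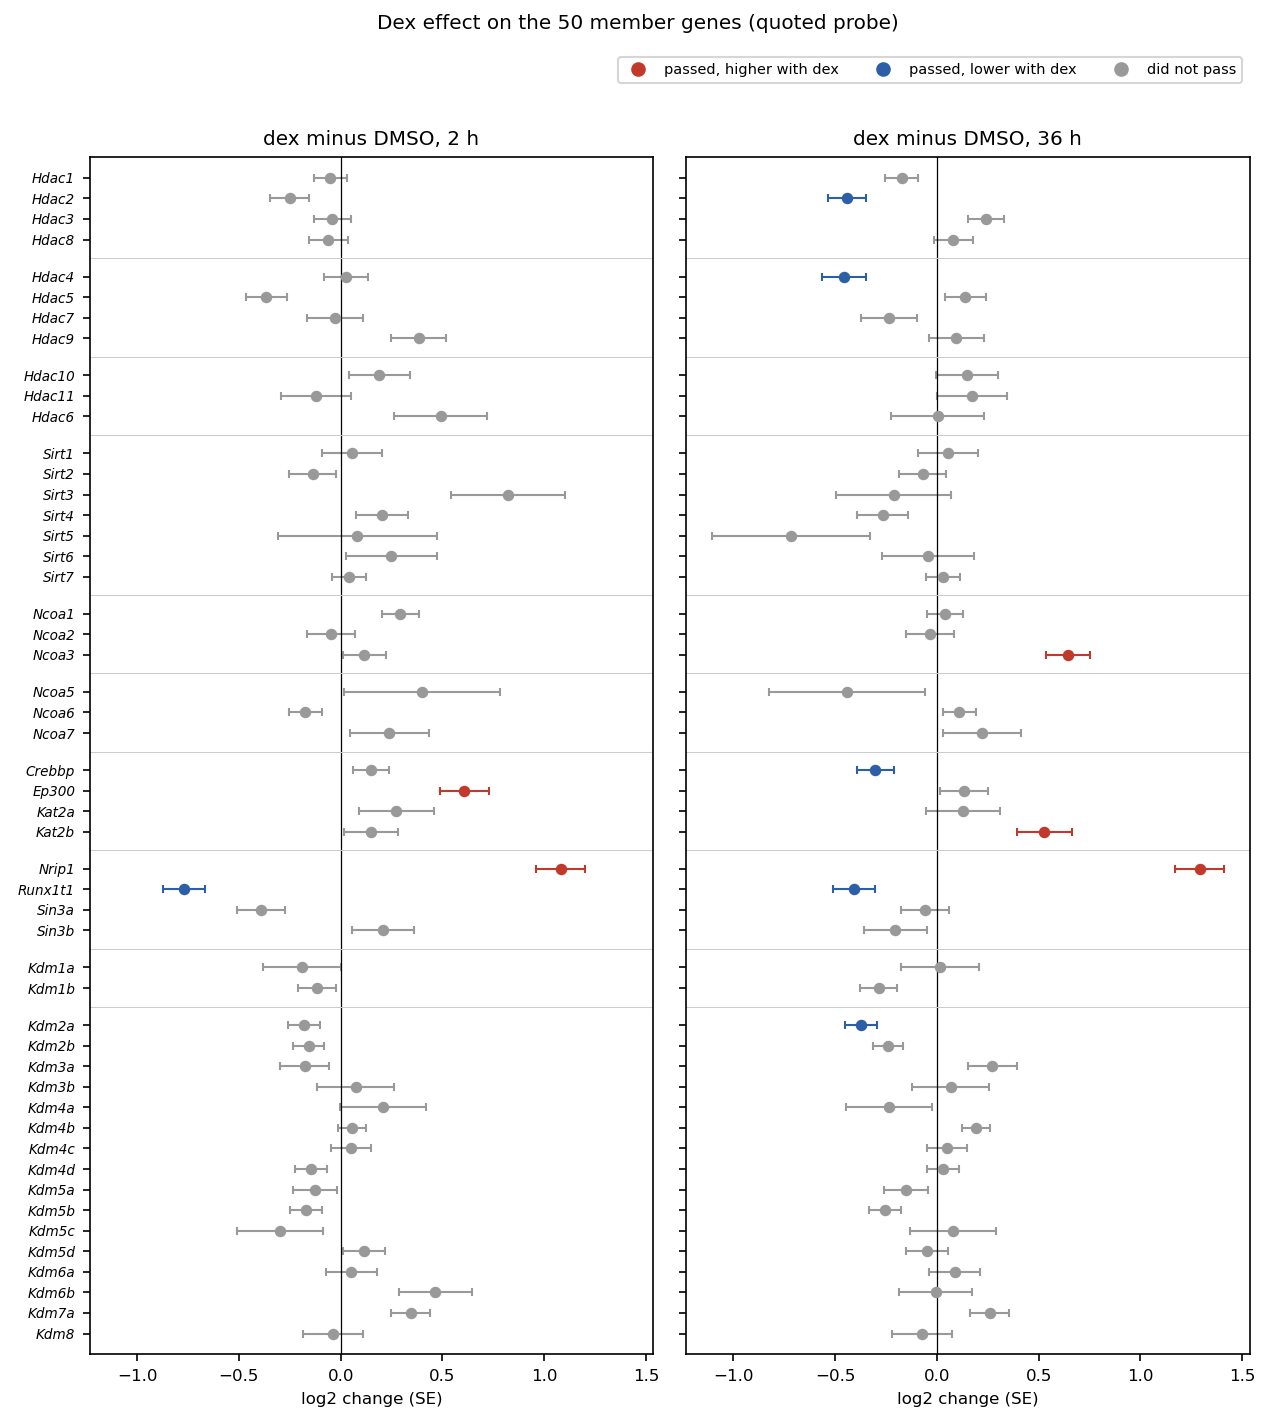
Log2 change, dex minus DMSO, of the 50 members at 2 h (left) and 36 h (right), ordered by role, with 1 probe per gene; bars are SE from the limma fit, n = 4 arrays per group. Nrip1 and Runx1t1 passed in both panels, and 3 members passed at 2 h and 8 at 36 h.

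Among the members that passed, Nrip1, a corepressor gene, had the largest change at both times. It encodes receptor-interacting protein, a corepressor that binds ligand-bound nuclear receptors and recruits histone deacetylases and C-terminal binding protein; in mouse adipose tissue it is known to hold down genes of oxidative metabolism. The RefSeq promoter table of assembly GRCm38.p6 lists 2 windows for Nrip1, on the minus strand of chromosome 16, at chr16:76373000-76373299 and chr16:76373778-76374077, each from 250 bases before to 50 bases after a transcription start. They are shown because Nrip1 is the member with the largest rise, and capitals mark a GC box (GGGCGG or its complement CCGCCC).
Nrip1, first window: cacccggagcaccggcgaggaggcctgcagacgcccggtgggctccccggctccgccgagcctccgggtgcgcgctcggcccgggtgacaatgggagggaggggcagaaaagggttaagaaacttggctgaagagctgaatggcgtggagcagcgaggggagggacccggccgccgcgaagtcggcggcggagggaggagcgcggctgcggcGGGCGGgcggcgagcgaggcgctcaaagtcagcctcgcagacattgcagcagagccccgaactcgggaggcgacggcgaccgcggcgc
Nrip1, second window: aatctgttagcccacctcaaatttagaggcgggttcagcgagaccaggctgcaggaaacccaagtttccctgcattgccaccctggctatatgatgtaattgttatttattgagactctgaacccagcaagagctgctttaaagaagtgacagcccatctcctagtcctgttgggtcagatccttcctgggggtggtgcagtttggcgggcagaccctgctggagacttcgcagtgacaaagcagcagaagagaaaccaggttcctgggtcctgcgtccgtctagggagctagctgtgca

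In the dex 2 h arrays Nrip1 stood at 0.59, 0.82, 0.63 and 0.60 (replicates 1 to 4), and in the DMSO 2 h arrays at -0.082, -0.36, -0.57 and -0.67. All 4 dex arrays lay above all 4 DMSO arrays, with a gap wider than the range within the dex group. The log2 change was 1.08 ± 0.12 (SE, n = 4 per group), or 2.11-fold higher with dex (limma adjusted p = 5.04e-05). At 36 h the dex arrays read 0.64, 0.40, 0.59 and 0.44, against -0.92, -0.85, -0.59 and -0.75 in DMSO. The groups were again fully apart, and every dex array was above the pool and every DMSO array below it. Nrip1 was 2.45-fold higher with dex at 36 h (log2 change 1.29 ± 0.12, limma adjusted p = 3.65e-06). The difference between the effects at 36 h and at 2 h was 0.21 ± 0.17, with a 95% confidence interval of -0.15 to 0.57 and a limma adjusted p of 0.631. Nrip1 passed at both times in all 23 alternative fits and under the log-odds rule, with adjusted p values of up to 0.00891 at 2 h and 0.0162 at 36 h.

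A second Nrip1 probe, which the annotation ties to a single cDNA and to no RefSeq transcript, gave a different course. It gave 0.83 ± 0.23 at 2 h (limma adjusted p = 0.0926) and 0.03 ± 0.23 at 36 h (adjusted p = 0.989). The lowest dex 2 h array, at 0.238, was just above the highest DMSO 2 h array, at 0.234. Far out were dex 2 h replicate 2, at 1.05, and DMSO 2 h replicate 4, at -1.10. No source used here says which transcripts the 2 probes read. The rise at 36 h is thus carried by 1 of 2 probes. With the mean of both probes it was 0.66, the lowest value among the alternatives.

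Runx1t1, which encodes the corepressor MTG8 (ETO) and is known as an inhibitor of C/EBP in early 3T3-L1 adipogenesis, was lower with dex. Its dex 2 h arrays read -0.43, -0.13, -0.29 and -0.44, against 0.64, 0.33, 0.53 and 0.29 in DMSO 2 h. Every dex array was below the pool and every DMSO array above it. The log2 change was -0.77 ± 0.10, or 1.70-fold lower (limma adjusted p = 3.53e-04), and it passed in all 23 alternative fits and under the log-odds rule. After 36 h the dex arrays read -0.31, -0.20, 0.061 and -0.16, against 0.24, 0.34, 0.19 and 0.25 in DMSO. The highest dex array, replicate 3, stayed below the lowest DMSO array. Runx1t1 was 1.33-fold lower (-0.41 ± 0.10, limma adjusted p = 0.0225), and the fall was smaller than at 2 h by 0.36 ± 0.15, a difference that did not pass (adjusted p = 0.275). On the quoted probe the call at 36 h was lost without dex 36 h replicate 1 or DMSO 36 h replicate 1, 2 or 4, with adjusted p values of 0.0557 to 0.0911. Through another probe the gene still passed without each of these arrays other than DMSO 36 h replicate 2.

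The other 2 Runx1t1 probes did not show the same pattern. One gave -0.29 ± 0.10 at 2 h (limma adjusted p = 0.263) and -0.46 ± 0.10 at 36 h (adjusted p = 0.0115), and the other gave -0.08 and -0.13, neither of which passed. Sin3a and Sin3b encode scaffolds on which Hdac1 and Hdac2 are carried to promoters, and neither passed at either time. Sin3a, singled out after its values were seen, was at -0.39 ± 0.12 at 2 h with its 4 dex arrays below its 4 DMSO arrays (limma adjusted p = 0.136). On this probe Sin3a passed without DMSO 2 h replicate 4 (limma adjusted p = 0.0458), under array weights and with quantile normalization. The other Sin3a probe gave -0.05 ± 0.15 at 2 h (adjusted p = 0.951), and its dex and DMSO arrays overlapped. The corepressor gene Ncor1, whose product holds Hdac3 at unliganded receptors, had no probe naming it alone.

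**Figure D2:**
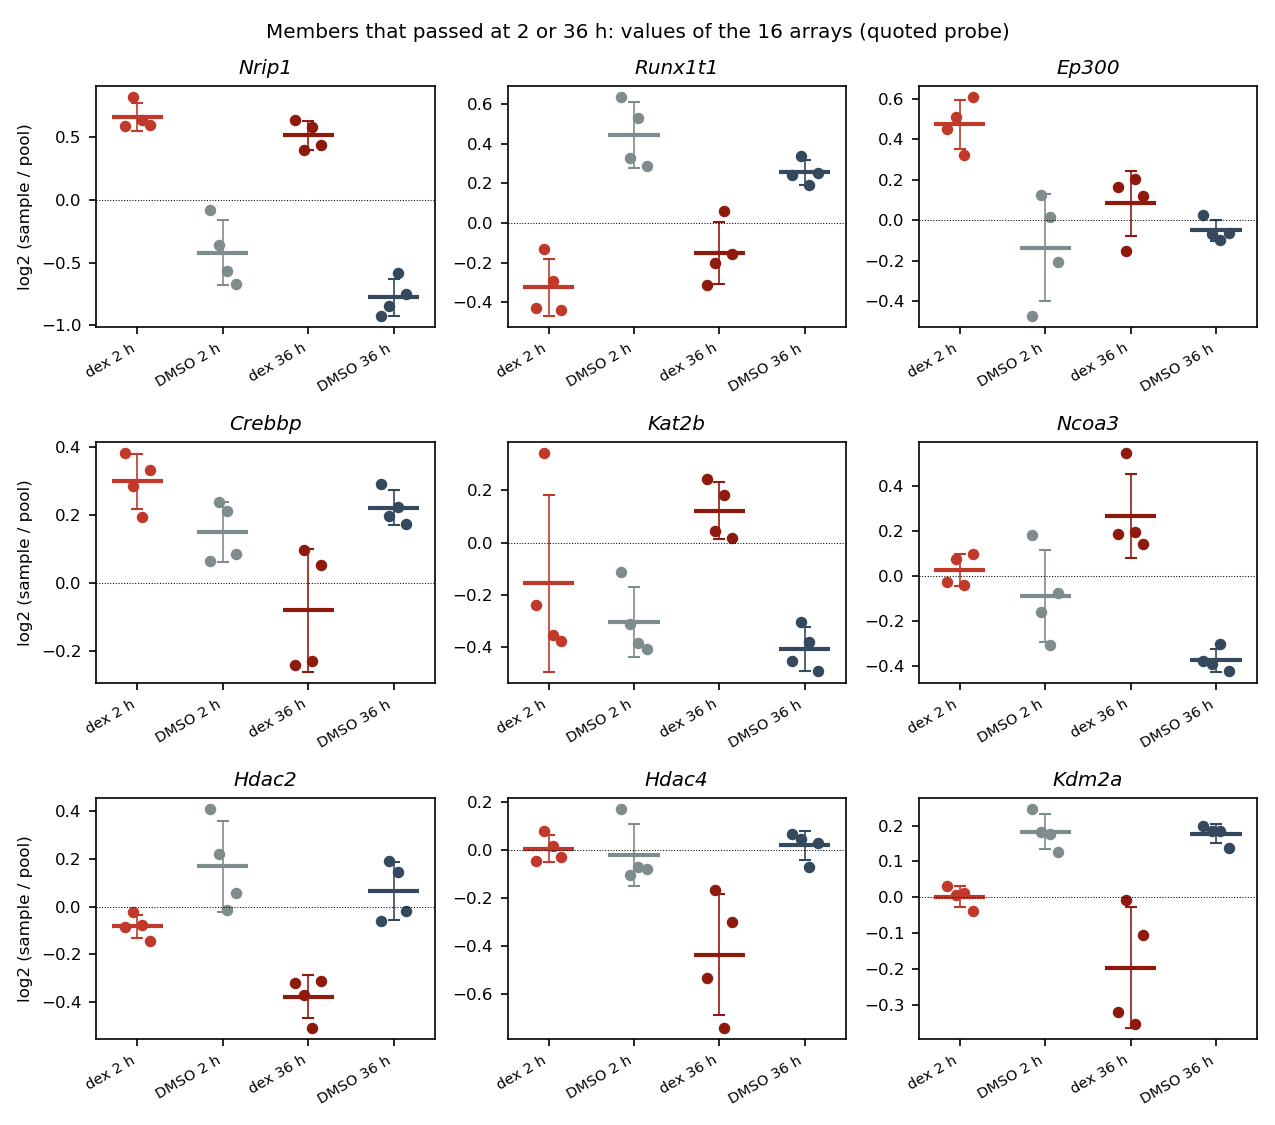
Log2 ratio of sample over pool on each of the 16 arrays for the 9 members that passed at 2 or 36 h, 1 probe per gene; points are arrays, long lines group means and bars SD (n = 4). Dex and DMSO arrays are apart at both times for Nrip1, Runx1t1, Hdac2 and Kdm2a, at 2 h for Ep300, and at 36 h for Ncoa3, Kat2b, Crebbp and Hdac4.

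Among the acetyltransferase coactivators, each of the closely related genes Ep300 and Crebbp passed at 1 time and in its own direction. Ep300 encodes p300, an acetyltransferase that bridges many transcription factors to the polymerase machinery. Its dex 2 h arrays read 0.45, 0.51, 0.32 and 0.61, against -0.47, 0.12, 0.015 and -0.21 in DMSO 2 h. The groups did not overlap, although the DMSO arrays were widely spread. Ep300 was 1.52-fold higher with dex at 2 h (0.61 ± 0.12, limma adjusted p = 0.00906), and at 36 h its change was 0.13 ± 0.12 (adjusted p = 0.619). The difference between the effects, -0.47 ± 0.17, did not pass (limma adjusted p = 0.202), so a lesser effect at 36 h is not shown. The call at 2 h was lost in a fit of the 2-hour arrays alone (adjusted p = 0.147). The other Ep300 probe, tied to 1 cDNA with no RefSeq transcript, gave 0.17 ± 0.16 at 2 h and 0.38 ± 0.16 at 36 h, and the mean of both gave 0.39 at 2 h (limma adjusted p = 0.0982).

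Crebbp encodes CBP, the paralog of p300. On its dex 36 h arrays it read -0.24, 0.097, -0.23 and 0.053, against 0.29, 0.20, 0.22 and 0.17 in DMSO 36 h. All dex arrays were below all DMSO arrays, and within dex the arrays fell into a higher and a lower pair. The change was -0.30 ± 0.09, or 1.23-fold lower (limma adjusted p = 0.0478), and it lies at the edge of the threshold. Leaving out any 1 of 11 of the 16 arrays (all of dex 2 h, DMSO 2 h replicate 3, dex 36 h replicates 1 and 3, all of DMSO 36 h) lost the call, with adjusted p values of 0.0514 to 0.178. The other 2 Crebbp probes gave -0.22 ± 0.14 and -0.10 ± 0.11 at 36 h, and neither passed. At 2 h the quoted probe gave 0.15 ± 0.09 (limma adjusted p = 0.598).

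Kat2b encodes PCAF, an acetyltransferase that works with p300 and CBP, and Kat2a its close relative GCN5. Kat2b read 0.25, 0.045, 0.18 and 0.018 on the dex 36 h arrays, against -0.45, -0.30, -0.38 and -0.49 in DMSO 36 h. The dex arrays were all above the pool and the DMSO arrays all below it. Kat2b was 1.44-fold higher with dex at 36 h (0.53 ± 0.13, limma adjusted p = 0.0227). A second probe gave 0.38 ± 0.10 (adjusted p = 0.027) and the third 0.47 ± 0.15 (adjusted p = 0.0646), all 3 with the dex arrays above the DMSO arrays. At 2 h the quoted probe gave 0.15 ± 0.13 (limma adjusted p = 0.748), with dex replicate 2 at 0.34 and the other dex arrays between -0.37 and -0.24. The call at 36 h on the quoted probe was lost without dex 36 h replicate 1 or 3 or DMSO 36 h replicate 1, 3 or 4 (adjusted p values of 0.0503 to 0.0829). Kat2a did not pass at either time.

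RefSeq promoter windows were found for 39 of the 50 members (55 windows) and were searched on both strands for the half-site of the glucocorticoid receptor (AGAACA or TGTTCT), for the full palindrome of both half-sites set apart by NNN, which contains the half-site, and for the GC box, which overlaps neither. The half-site stood in 16.4% of member windows and in 19.0% of 32851 windows of all genes. The palindrome was in 0 of the 55 member windows and in 3 of all windows. The GC box stood in 60% of member windows and 35.7% of all windows, and the median GC content was 60.7% and 52.7%. Among the members that changed, 6 had windows (8 in all), and Kat2b alone had a half-site in any of them. That window, chr17:53583876-53584175 on the plus strand of GRCm38.p6, is shown for that reason, with the half-site in capitals 19 bases past the start. A match or its absence in these windows is a description of their letters.
Kat2b, second window: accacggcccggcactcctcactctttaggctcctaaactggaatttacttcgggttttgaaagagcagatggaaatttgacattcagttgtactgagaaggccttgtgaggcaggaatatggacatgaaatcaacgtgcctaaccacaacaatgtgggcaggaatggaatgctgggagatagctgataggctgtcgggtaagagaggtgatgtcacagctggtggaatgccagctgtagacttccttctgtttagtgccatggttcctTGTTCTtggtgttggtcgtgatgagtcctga

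**Figure D3:**
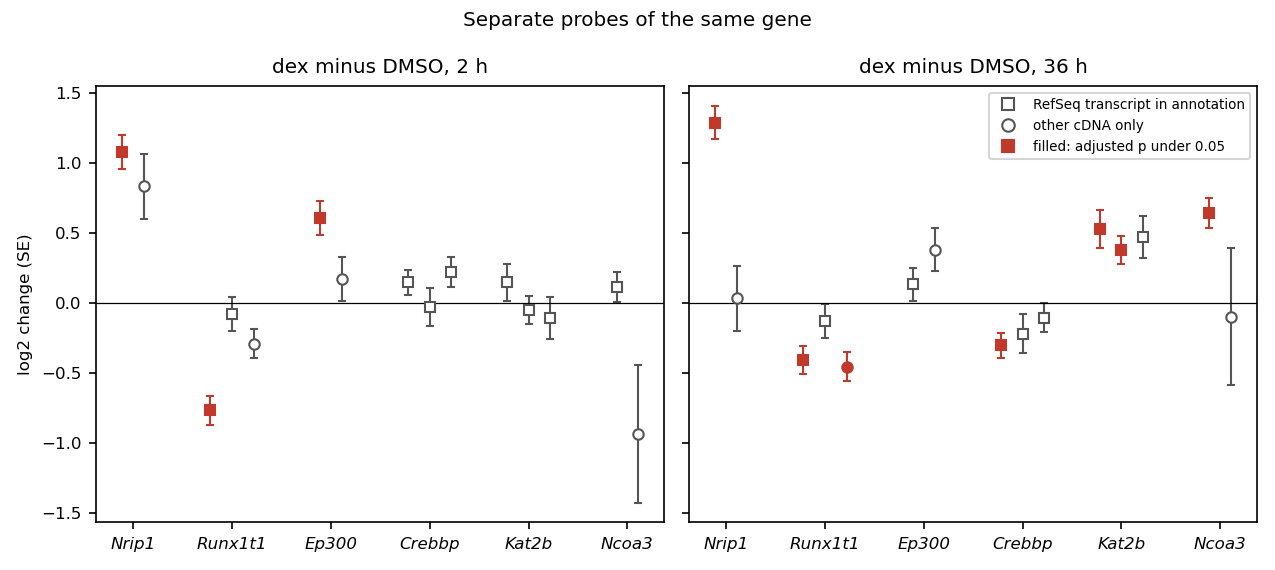
Log2 change, dex minus DMSO, of each probe of the 6 changed members with several probes, at 2 h (left) and 36 h (right); bars are SE (n = 4 per group), squares are probes with a RefSeq transcript in the annotation, circles those with another cDNA alone, and filled symbols passed. The 3 Kat2b probes lie together at 36 h, while the Nrip1 and Ncoa3 probes lie apart there.

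The probes of 1 gene often differed. Of the members with several probes, 3 passed at 2 h and 5 at 36 h, and in none of them did all probes pass. Of the 69 member probes with a RefSeq transcript 9 passed at 36 h (10.1% of all such probes on the array did), and of the 20 without one 1 passed (7.63% of all such probes).

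The p160 coactivators bind ligand-bound receptors directly through their LXXLL motifs. Ncoa3, which encodes the family member also called AIB1, was the only one of the 3 to pass, and it did so at 36 h. Its dex 36 h arrays read 0.19, 0.55, 0.19 and 0.15, against -0.38, -0.39, -0.31 and -0.43 in DMSO 36 h. The DMSO arrays were tightly grouped below the pool, and dex replicate 2 stood above the other dex arrays. Ncoa3 was 1.56-fold higher with dex (0.65 ± 0.11, limma adjusted p = 0.00113), and leaving out dex replicate 2 or any other array kept the call. At 2 h its change was 0.12 ± 0.11 (adjusted p = 0.754). The difference of 0.53 ± 0.15 between the effects at 36 h and 2 h did not pass (limma adjusted p = 0.0972). The second Ncoa3 probe, without a RefSeq transcript, gave -0.93 ± 0.49 at 2 h and -0.10 ± 0.49 at 36 h. On it, dex 2 h replicate 2 read -2.33 and DMSO 2 h replicate 4 read 1.77, and the SE is shared by both times. Its 36-hour arrays were close together, at -0.081 to 0.073 in dex and 0.050 to 0.20 in DMSO, and showed no rise. On the mean of both probes the call at 36 h was lost (0.27, limma adjusted p = 0.622).

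Ncoa1, or SRC-1, was at 0.29 ± 0.09 at 2 h (limma adjusted p = 0.152) and 0.04 ± 0.09 at 36 h (adjusted p = 0.923). Ncoa2, known as GRIP1 or TIF2 for its binding to the glucocorticoid receptor, was at -0.05 ± 0.12 and -0.03 ± 0.12 at 2 h and 36 h, with limma adjusted p values of 0.931 and 0.968. Its 95% confidence interval at 36 h was -0.28 to 0.22, and its other 2 probes lay within 0.05 of 0 at both times. Among the other Ncoa genes, Ncoa5, Ncoa6 and Ncoa7, 0 of 3 passed at either time, with quoted changes of -0.17 to 0.40 at 2 h and -0.44 to 0.22 at 36 h. The -0.44 was that of Ncoa5, for which replicate 4 read -2.19 in dex 36 h and -0.97 in DMSO 36 h. Its other dex 36 h arrays read -0.11 to 0.035, and its other DMSO 36 h arrays 0.076 to 0.17. The unadjusted p of Ncoa5, Ncoa6 and Ncoa7 was under 0.05 for 1 of the 3 at 2 h and for 0 at 36 h. No share of all genes at an unadjusted p was computed, so nothing is read from such counts here or below.

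Of the zinc-dependent deacetylases, Hdac2 and Hdac4 were lower with dex at 36 h and none passed at 2 h. Hdac2 is a class I enzyme and the catalytic subunit, with Hdac1, of the Sin3, NuRD and CoREST complexes. It read -0.32, -0.37, -0.51 and -0.31 on the dex 36 h arrays, against -0.059, 0.19, 0.15 and -0.017 in DMSO 36 h. All dex arrays were below the pool and below every DMSO array. Hdac2 was 1.36-fold lower (-0.44 ± 0.10, limma adjusted p = 0.0085) and passed in all 23 alternative fits, but was not called by the log-odds rule. At 2 h its arrays did not overlap either, at -0.086, -0.023, -0.078 and -0.14 with dex, against 0.41, 0.22, -0.015 and 0.056 in DMSO. The gap between the groups was small there, and the change of -0.25 ± 0.10 did not pass (limma adjusted p = 0.315).

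Its partner Hdac1 was at -0.05 ± 0.08 at 2 h and -0.17 ± 0.08 at 36 h, with limma adjusted p values of 0.88 and 0.237. Hdac3, the enzyme of the NCoR complex, was at -0.04 ± 0.09 and 0.24 ± 0.09, with adjusted p values of 0.919 and 0.114. The second Hdac3 probe gave -0.56 ± 0.45 and -0.58 ± 0.45. On it, dex 36 h replicate 1 read -2.79 and the other dex 36 h arrays -0.13 to -0.10. The mean of both probes turned the sign at 36 h.

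Hdac4 belongs to class IIa, whose members shuttle between cytoplasm and nucleus and bind MEF2 factors. The dex 36 h arrays read -0.53, -0.17, -0.74 and -0.30, against 0.068, 0.047, -0.069 and 0.031 in DMSO 36 h. The dex arrays varied far more than the DMSO arrays and lay below all of them. Hdac4 was 1.37-fold lower (-0.46 ± 0.11, limma adjusted p = 0.0157), a call that was lost without dex 36 h replicate 1 or DMSO 36 h replicate 1 or 2 (adjusted p values of 0.0508 to 0.0625). At 2 h the change was 0.03 ± 0.11 (adjusted p = 0.959), and the difference between the effects was -0.48 ± 0.15 (adjusted p = 0.141).

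Hdac5, a class IIa gene singled out after its values were seen, passed at neither time. It read 0.0049, 0.014, -0.020 and -0.055 on the dex 2 h arrays, against 0.62, 0.25, 0.32 and 0.22 in DMSO 2 h. The groups were apart, with the dex arrays close together near the pool. The change of -0.36 ± 0.10 did not pass (limma adjusted p = 0.0853). It passed without DMSO 2 h replicate 4 (0.047), without dex 36 h replicate 2 (0.0486) and under array weights (0.0414). At 36 h it was at 0.14 ± 0.10 (adjusted p = 0.489), and the difference between the effects was 0.50 ± 0.14 (adjusted p = 0.0837). In classes IIb and IV (Hdac6, Hdac10, Hdac11) 0 of 3 genes passed at either time, with 1 at an unadjusted p under 0.05 at 2 h and 0 at 36 h.

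Of the 7 sirtuins, deacetylases that consume NAD, none passed at either time in limma, with 1 at an unadjusted p under 0.05 at 2 h and 0 at 36 h; under array weights or quantile normalization Sirt4 was lower at 36 h. Sirt1, known as a repressor of PPARγ in mouse fat, read -0.19, 0.30, -0.14 and -0.42 in dex 2 h, against 0.044, 0.063, -0.37 and -0.42 in DMSO 2 h. In dex 36 h it read -0.24, 0.069, -0.11 and -0.29, against -0.29, -0.13, -0.24 and -0.13 in DMSO 36 h. The dex and DMSO arrays overlapped at both times, and the 95% confidence interval of the change was -0.26 to 0.37 at both. Quoted changes of the sirtuins ranged from -0.14 to 0.82 at 2 h and from -0.72 to 0.05 at 36 h, and Sirt3, the highest at 2 h, and Sirt5, the lowest at 36 h, had the widest errors of the 7. For Sirt3, DMSO 2 h replicates 1 and 4 read -1.49 and -1.43, and the other DMSO 2 h arrays -0.050 and -0.047. For Sirt5, dex 36 h replicate 3 read -2.32, and the other dex 36 h arrays -0.059 to 0.22.

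Kdm2a, a JmjC enzyme that binds unmethylated CpG islands and removes methyl groups from lysine 36 of histone H3, was the single one of 16 JmjC and 2 flavin-dependent demethylase genes to pass at either time, and it did so at 36 h. The dex 36 h arrays read -0.32, -0.0064, -0.35 and -0.11, against 0.20, 0.19, 0.19 and 0.14 in DMSO 36 h. The DMSO arrays were nearly equal, and the dex arrays split into a lower pair (replicates 1 and 3) and a higher pair. The same replicates were the lower pair for Crebbp and Hdac4 and the higher pair for Nrip1 and Kat2b. For Runx1t1, Ncoa3 and Hdac2 they were neither. Kdm2a was 1.30-fold lower (-0.37 ± 0.08, limma adjusted p = 0.00734) and passed in all 23 alternative fits and under the log-odds rule. At 2 h its arrays read 0.030, 0.0055, 0.011 and -0.039 with dex, against 0.25, 0.18, 0.18 and 0.13 in DMSO. The groups were apart as well, and the change of -0.18 ± 0.08 did not pass (limma adjusted p = 0.414). A further probe, which names Kdm2a together with other genes and was not counted, gave -0.34 ± 0.12 at 2 h (adjusted p = 0.281) and -0.09 ± 0.12 at 36 h (adjusted p = 0.81).

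Kdm1a, or LSD1, the flavin-dependent demethylase of the CoREST complex, was at -0.19 ± 0.19 at 2 h and 0.01 ± 0.19 at 36 h (limma adjusted p values of 0.782 and 0.996). DMSO 2 h replicate 1 stood at 0.99, and without it the 2-hour change was 0.07. Of the 16 JmjC genes 0 passed at 2 h (4 at an unadjusted p under 0.05) and 1 at 36 h (6 at an unadjusted p under 0.05). Another 3 were singled out after their values were seen. Kdm5b, which removes methyl groups from lysine 4 of histone H3, read -0.18, -0.13, -0.25 and -0.11 in dex 36 h, against 0.12, 0.19, -0.0074 and 0.050 in DMSO 36 h. Its groups were apart, and its change of -0.25 ± 0.08 fell just short of the threshold (limma adjusted p = 0.0525), passing in 7 alternatives. Kdm7a was at 0.35 ± 0.10 at 2 h with the dex arrays above the DMSO arrays (adjusted p = 0.0928), while its other 2 probes gave 0.06 and -0.21. On the quoted probe it passed without dex 36 h replicate 3 (0.0354). Kdm6b, which demethylates lysine 27 of histone H3, was at 0.47 ± 0.18 at 2 h (adjusted p = 0.322), with DMSO 2 h replicate 4 at -0.76 and the other DMSO arrays at 0.068 to 0.30.

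**Figure D4:**
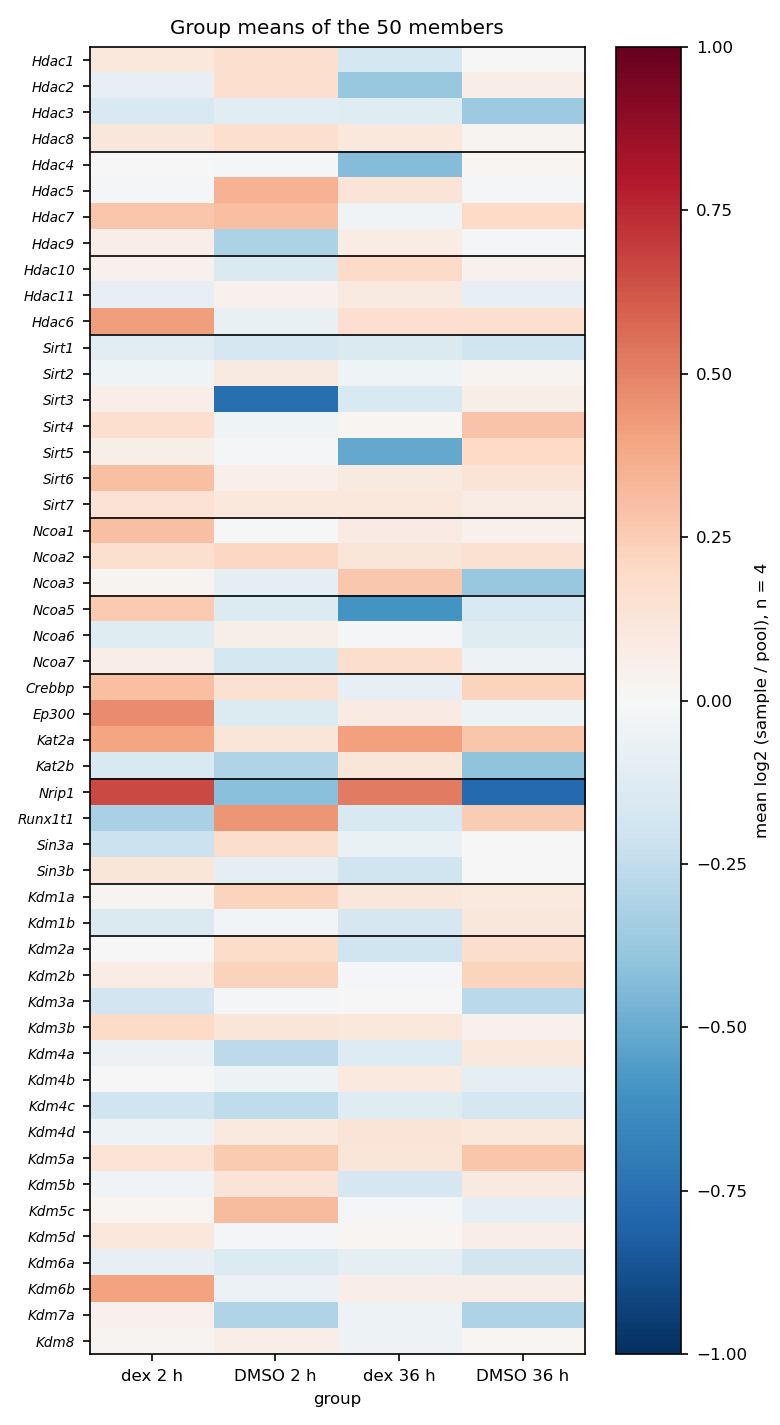
Mean log2 ratio of sample over pool in the 4 groups for the 50 members, 1 probe per gene, n = 4 arrays per group; red is above the pool and blue below, and lines separate the roles. Nrip1 is above the pool in both dex groups and below it in both DMSO groups, and Runx1t1 the reverse.

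In vehicle no member passed over time. DMSO at 36 h against 2 h gave 0 of 50 in limma (1.26% of all genes passed), with 11 at an unadjusted p under 0.05. Hdac5 passed under array weights (2.55% of all genes) and Sirt4 under quantile normalization (3.82%). In dex at 36 h against 2 h, Crebbp passed (1 of 50, against 2.43% of all genes): it was lower at 36 h by a log2 change of -0.38 ± 0.09 (limma adjusted p = 0.045), with the 4 dex 36 h arrays below the 4 dex 2 h arrays, which read 0.38, 0.29, 0.19 and 0.33. On the quoted probe that call was lost without any 1 of 11 arrays, all 4 of dex 2 h among them (adjusted p values of 0.0614 to 0.177). The effects of dex at 36 h and at 2 h differed for 0 of 50 members (3.48% of all genes), with 13 at an unadjusted p under 0.05. For this 13 and the 11 in DMSO, no share of all genes was computed, so nothing is read from them. Counts for the difference between the effects moved with single arrays. Without dex 36 h replicate 2, 3 members passed (Crebbp, Hdac4 and Hdac5, with 3.82% of all genes), Kat2b passed without dex 2 h replicate 2 (3.18%), and Hdac5 without DMSO 2 h replicate 4 (4.64%).

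Counted by separation, 11 of the 89 member probes (12.4%) had all 4 dex arrays to 1 side of all 4 DMSO arrays at 2 h, 5 above and 6 below, against 5.88% of all probes. At 36 h there were 22 (24.7%), 10 above and 12 below, against 26.8% of all probes. Between dex at 36 h and at 2 h the count was 18 (20.2%, against 11.9% of all probes), 13 of them lower at 36 h, and between DMSO at 36 h and at 2 h it was 10 (11.2%, against 10.5%).

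The counts depended on single arrays and on how noise was handled. At 2 h, 5 members passed without DMSO 2 h replicate 4, with Hdac5 and Sin3a added (3.98% of all genes). At 36 h, 5 passed without dex 36 h replicate 1, without DMSO 36 h replicate 1 or without DMSO 36 h replicate 2, where 6.56%, 6.83% and 6.65% of all genes did. Array weights gave 5 members at 2 h (3.75% of all genes), 22 at 36 h (46.3%), 6 for the difference between the effects (9.4%) and 16 for dex over time (20.2%). Quantile normalization gave 17 at 36 h (22.1%), 4 for the difference (7.15%) and 3 for dex over time (4.17%). Fits of the compared groups alone gave 2 at 2 h (1.5%), 14 at 36 h (23.2%) and 0 for dex over time (1.35%). Under the log-odds rule of the design text, 3 members were called at 2 h (2.53% of all genes), 3 at 36 h (5.23%) and 0 for dex over time (1.92%).

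Of 91 measured genes from lists of other chromatin regulators, 4 passed at 2 h (4.40%, against 3.18% of all genes) and 9 at 36 h (9.89%, against 11.7%). Among partners of the corepressor complexes, Rbbp7, a histone-binding subunit shared by Sin3 and NuRD, rose at 2 h on all 3 of its probes (0.54 ± 0.07 on the quoted one, limma adjusted p = 2.21e-04) and was at 0.10 ± 0.07 at 36 h. This difference between times passed (-0.44 ± 0.10, limma adjusted p = 0.0249). Tbl1xr1, an exchange factor of the NCoR complex, rose by 0.63 ± 0.09 at 2 h on 1 of 5 probes. At 36 h Sap130 fell by 0.45 ± 0.12 on the quoted probe, and Tle1 gave -0.74 on 1 probe and 0.68 and 0.53 on the others, all 3 passing, so it has no single direction.

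Of the other acetyltransferases and coactivators, 3 of 17 fell at 36 h and 0 rose, where 4.96% and 6.88% of all genes did. They were Trrap, the scaffold of acetyltransferase complexes (-0.39 ± 0.09), Kat6b (-0.37 ± 0.10) and the acetyl-lysine reader gene Brd3 (-0.35 ± 0.09 on the quoted probe, and both probes passed). Ehmt2, a methyltransferase of lysine 9 of histone H3, was the 1 of 22 methyltransferase genes to pass at 36 h (-0.22 ± 0.06, limma adjusted p = 0.0449). Jmjd1c, a JmjC gene outside the Kdm names, rose by 0.85 ± 0.11 at 2 h and by 0.42 ± 0.11 at 36 h on 1 of 2 probes. In the SWI/SNF remodeller Arid1a fell at 2 h (-0.42 ± 0.06 on the quoted probe, and 2 of 3 probes passed), and at 36 h Smarcd2 rose (0.67 ± 0.09) and Smarce1 fell (-0.37 ± 0.10).

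Markers of cell state also differed between dex and DMSO. At 36 h, 2 of 8 adipocyte markers rose (6.88% of all genes did), namely Fabp4 (2.59 ± 0.31) and Pparg on 1 of 3 probes (0.82 ± 0.15). The quoted changes of these 8 ranged from -0.21 to 2.59, and 0 passed downward. Of 7 preadipocyte or fibroblast markers, 4 fell (4.96% of all genes did), among them Dlk1 (-0.86 ± 0.17) and Col1a1 (-0.72 ± 0.10). The quoted changes of these 7 ranged from -0.86 to 0.33, and 0 passed upward. At 2 h Fabp4 was up by 1.60 ± 0.31, Cebpa was down (-0.55 ± 0.13 on 1 of 2 probes) and Pdgfrb was down (-0.74 ± 0.09). None of 6 macrophage and 4 endothelial markers passed at either time, with 2 macrophage markers at an unadjusted p under 0.05 at 36 h. Over time, 0 of the 8 adipocyte and 0 of the 7 preadipocyte or fibroblast markers passed in dex (2.43% of all genes). In DMSO over time, 1 adipocyte marker fell and 1 preadipocyte or fibroblast marker rose (1.26% of all genes passed). The effect of dex was higher at 36 h than at 2 h for 1 of the 8 adipocyte markers (limma adjusted p = 0.0148). For 1 of the 7 preadipocyte or fibroblast markers it was lower (adjusted p = 0.00973), and 3.48% of all genes passed in this contrast. The marker differences at 36 h are thus between dex and DMSO, and no change of these markers within dex after 2 h is shown. The part of these marker differences in the changes of the members was not tested.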

How the data were processed

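Total RNA of 4 biological replicates in each of 4 groups was measured on 2-colour arrays, with the sample labelled Cy5 and the pooled reference Cy3, per the labels. For each probe and array the authors deposited 1 log ratio, sample over pool, used here as a log2 value. No source used here gives the log base, background correction or normalization; base 2 was taken because the submitters' processing notes name limma, and were it the natural log, all changes would scale up alike. Of all values 131 were missing, none on a member probe, and 0 columns were left unused. The lowest correlation between arrays was -0.34; since the labels state the dyes, the direction was kept. Signal over background is not known, and the number of arrays limits the precision.

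Probes were named from the platform's annotation (29456 with 1 gene, 760 with several, the latter not used); updating symbols through Entrez identifiers in a RefSeq table of GRCm38.p6 changed no membership. With limma 3.58.1 in R 4.3.3, group means over 16 arrays were fitted with lmFit and eBayes and no covariates (12 residual and 3.19 prior degrees of freedom), and p values were adjusted by Benjamini-Hochberg over 38467 probes. The script was tested on simulated data. For genes with several probes the quoted value is from the probe whose moderated F test over the 2 dex contrasts gave the lowest p.

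Named with values were all members that passed in a dex contrast or in the difference between the effects, and in every case Hdac1, Hdac2, Hdac3, Sirt1, Ncoa1, Ncoa2, Ncoa3, Nrip1, Ep300, Crebbp and Kdm1a (Ncor1 had no probe naming it alone), with the array values of those that passed with separated groups; members that passed over time alone were to be named too, up to 6 each way, and from each further list up to 4 that passed, the largest first. One item is not reported here. The members and the lists were chosen with earlier results of these data known. Alternatives were the replicate number as a block, array weights, fits of the compared groups alone, quantile normalization, robust eBayes, complete probes, gene means, updated symbols, the log-odds rule of the design text, and leaving out each of the 16 arrays. Deviations of same-numbered samples correlated at -0.103 to 0.344, with 5 of 24 pairs over 0.1. The largest were between dex and DMSO of the same time. They were 0.344 and 0.224 at 36 h (replicates 2 and 3) and 0.255 and 0.19 at 2 h (replicates 4 and 2). The other same-time pairs lay between -0.103 and 0.041. The numbers were not taken as pairs, and a block within each time was not fitted. Promoter sequences are from RefSeq, GRCm38.p6. Python 3.11.15, pandas 2.3.3 and matplotlib 3.10.9 were used.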

Additional observations from a re-analysis of the deposited data

Results flagged for a closer look

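In 80 groups of 4 arrays, from 20 named members, 4 arrays stood far from the rest of their group by Dixon's test. Chance alone marks about 1 group in 20, so nothing is read from this count. Ncoa5, Sirt3 and Sirt5, whose far arrays are given above, were not among the 20, and each gene gave 1 probe. Kdm1a in DMSO 2 h stood at 0.991 in replicate 1, with the others between -0.062 and 0.0037, and in dex 2 h at 0.295 in replicate 2, with the others between -0.081 and -0.023. Hdac4 in DMSO 2 h stood at 0.172 in replicate 1, with the others between -0.105 and -0.072. Ncoa3 in dex 36 h stood at 0.549 in replicate 2, with the others between 0.145 and 0.194.

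Probes that name several genes were outside the comparisons above. One of the 4 that name Ncoa4 together with Ncoa4-ps, a gene and its near-identical copy, was higher with dex at 36 h by 0.45 ± 0.12 (limma adjusted p = 0.0283), while the other 3 gave 0.16, 0.21 and 0.34 and did not pass. The signals of gene and copy cannot be told apart on these probes.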

How the results depend on the processing

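Nrip1 and Runx1t1 at 2 h and Nrip1, Hdac2 and Kdm2a at 36 h passed in all 23 alternative fits; the log-odds rule called them too, except Hdac2. The limits of the data are the noise of the 2-hour arrays, the unknown signal over background and the disagreement of probes of 1 gene. Numbers of passing members under array weights were 5 at 2 h, 22 at 36 h, 6 for the difference between the effects, 1 for DMSO over time and 16 for dex over time. Under quantile normalization they were 17 at 36 h, 4 for the difference, 1 for DMSO over time and 3 for dex over time, and in fits of the compared groups alone 14 at 36 h and 0 for dex over time. With the replicate number as a block, 7 members passed at 36 h, where Crebbp was lost (adjusted p = 0.0748), and 0 for dex over time; the block changed no other member count. The log-odds rule gave 3 at 36 h and 0 for dex over time. Leaving out 1 array gave 3 to 5 members at 2 h, 5 to 11 at 36 h, 0 to 3 for the difference, 0 for DMSO over time and 0 to 3 for dex over time. Signs turned in results that did not pass. Under quantile normalization Hdac1 at 2 h was 2.44e-05, Kdm1a at 36 h -0.046 and Sirt1 at 2 h -0.019. With array weights Sirt1 at 36 h was -2.01e-04. With the mean of a gene's probes Hdac3 at 36 h was -0.17, Kat2b at 2 h -0.0027 and Ncoa3 at 2 h -0.41. Leaving out 1 array turned Hdac3 at 2 h (-0.068 to 0.011), Kat2b at 2 h (-0.018 to 0.22), Kdm1a at 2 h (-0.28 to 0.068) and at 36 h (-0.067 to 0.080), Ncoa2 at 2 h (-0.14 to 0.027) and at 36 h (-0.084 to 0.067), and Sirt1 at 2 h (-0.083 to 0.16) and at 36 h (-0.015 to 0.10). The cause was not tested.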
